A study of Homo sapiens with 8 samples.

Results

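The 10 genes described here encode chemokines, small secreted proteins that attract leukocytes. They are CXCL1, CXCL2, CXCL3, CXCL5, CXCL8, CXCL10, CXCL16, CX3CL1, CCL2 and CCL20. They were taken by symbol from the 19775 genes measured, and all 10 were on the array. The cells were HuCCT1, an established human cholangiocarcinoma line, on 8 Affymetrix expression arrays. A control shRNA was expressed in 4 samples and an shRNA directed at YAP1 in the other 4, given in the labels as YAP shRNA 1, so the knockdown rests on a single hairpin. All 8 samples received doxycycline at 100 ng/ml for 3 days before seeding, which turns both shRNAs on, and no array without doxycycline was analysed here. The labels do not say whether the lines were clonal or whether replicates were separate cultures, so p-values cover only the variation among these samples, possibly just technical.

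YAP1, the coactivator that drives TEAD transcription factors when Hippo signalling is low, served as the check of the labels. It stood between 12.59 and 12.77 in the control arrays and between 10.40 and 10.55 in the YAP shRNA arrays on the deposited log2 scale. The epithelial and bile duct markers were bright, with a mean over 7 of them of 13.38 to 13.40 in control and 13.42 to 13.43 in YAP shRNA arrays. Of these 7, KRT19, a bile duct keratin, and CDH1, the epithelial cadherin, rose by 0.15 and 0.33, 0 fell and 5 were not called, and the list median was -0.05. Control shRNA replicate 4 stood apart from the other arrays on the second principal component, at -23.0 against -6.39 to 12.3, and results that rest on it are given with and without it. As a measure of RNA quality, GAPDH read higher at its 3′ than at its 5′ control probe set by 0.181 to 0.205 in control arrays and by 0.168 to 0.189 in YAP shRNA arrays. For ACTB the same difference was larger, at 0.883 to 1.10 in control and 0.964 to 1.16 in YAP shRNA arrays. It was lowest in control replicate 4 and highest in YAP shRNA replicate 1. Of all genes, 3294 or 16.7% passed the test (limma, Benjamini-Hochberg adjusted p below 0.05), 9.49% upward and 7.17% downward. The groups of 4 arrays did not overlap for 24.3% of genes.

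Chemokines bind G protein-coupled receptors on target cells and form gradients along which those cells move. CXC chemokines that carry the ELR motif before their first cysteines, such as CXCL8, act through CXCR2 and mainly attract neutrophils. CXCL10 lacks that motif, is induced by interferon and attracts T cells through CXCR3, and CXCL16 and CX3CL1 are made as membrane-bound proteins that proteases can release. CCL2 attracts monocytes through CCR2, and CCL20 attracts dendritic cells and T helper 17 cells through CCR6. Biliary epithelium and its tumours are known to secrete several of these ligands, and NF-kB is the usual inducer of most of them.

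The chemokine genes moved in 2 directions after the knockdown. The neutrophil-attracting ligands CXCL2, CXCL5 and CXCL8 fell, to levels 27.5%, 20.9% and 23.5% below control on the linear scale, and CCL20 fell to 15.2% below. The monocyte attractant CCL2 rose 1.91-fold and the membrane-bound ligand CXCL16 rose 1.22-fold. CXCL1, CXCL3, CXCL10 and CX3CL1 did not pass the test. With 4 falls and 2 rises, 6 of the 10 genes were called, where 16.7% of all genes were and 26.6% of genes above the median level, as 8 of the 10 were. Their median log2 difference was -0.17, against 0.01 over all genes. For 8 of the 10 genes the 2 groups did not overlap, as for 24.3% of all genes. In bulk RNA, fewer cells that make a transcript and less of it per cell cannot be told apart.

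**Figure D1:**
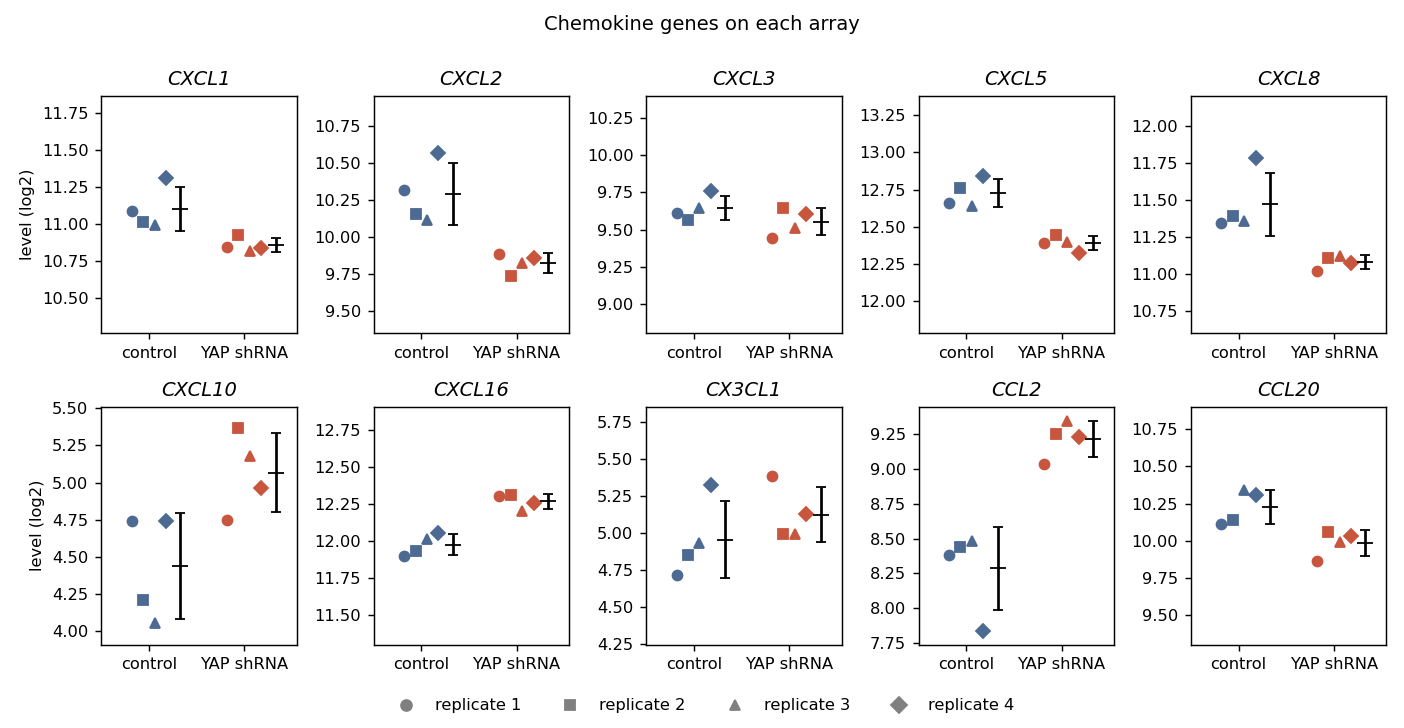
Level on the deposited log2 scale (vertical axis, each panel with its own range) of the 10 chemokine genes in control shRNA (blue) and YAP shRNA (red) arrays, 1 symbol shape per replicate number, with the mean and SD (n = 4) in black. CXCL2, CXCL5 and CXCL8 lie lower on all 4 YAP shRNA arrays, CCL2 and CXCL16 lie higher on all 4, and CXCL3 and CX3CL1 overlap between groups.

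The 5 ligands of CXCR2 lie in a single block of chromosome 4, and CXCL1, CXCL2 and CXCL3 are close copies, also in the bases just before their starts. The 120 bases before the start are given here for these 5 genes, 5′ to 3′ on the coding strand, from RefSeq's GRCh38.p14. Capitals mark the letters GGAATTTCC, a form of the NF-kB binding motif.

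CXCL1, chr4:73869273-73869392, plus strand: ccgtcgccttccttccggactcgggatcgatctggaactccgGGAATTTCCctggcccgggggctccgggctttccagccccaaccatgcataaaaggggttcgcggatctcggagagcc
CXCL2, chr4:74099196-74099315, minus strand: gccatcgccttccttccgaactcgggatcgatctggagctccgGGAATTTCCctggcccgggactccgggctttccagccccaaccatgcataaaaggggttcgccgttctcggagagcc
CXCL3, chr4:74038690-74038809, minus strand: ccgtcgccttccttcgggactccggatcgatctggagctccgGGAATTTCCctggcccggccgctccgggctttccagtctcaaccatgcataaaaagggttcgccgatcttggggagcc
CXCL5, chr4:73998678-73998797, minus strand: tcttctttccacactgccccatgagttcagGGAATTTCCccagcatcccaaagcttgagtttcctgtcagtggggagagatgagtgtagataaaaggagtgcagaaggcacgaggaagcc
CXCL8, chr4:73740449-73740568, plus strand: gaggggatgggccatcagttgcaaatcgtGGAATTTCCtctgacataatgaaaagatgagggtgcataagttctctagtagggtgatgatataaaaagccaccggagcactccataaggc

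Between CXCL1 and CXCL2, 113 of the 120 bases were identical after alignment, with a longest shared run of 42 bases. CXCL1 and CXCL3 shared 109 bases, and CXCL2 and CXCL3 shared 107. CXCL5 and CXCL8 shared 61 with each other, fewer than each shared with CXCL10 (64 and 65). The marked letters, searched on both strands in the 250 bases before the start, were present in 6 of the 7 described genes that the promoter table holds, which are these 5, CXCL10 and CCL20, and in 0.413% of 35116 promoters of the same length. CCL20 was the gene without them. These letters were chosen with the sequences in view. The TEAD motif CATTCC was present in CCL20 alone of the 7, at 45 to 40 bases before its start, and in 11.9% of all promoters. The AP-1 motif TGANTCA was present in CXCL8 alone, against 6.57% of all promoters. Matches describe letters and not binding.

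CXCL2, also called MIP-2 alpha, fell. It read 10.32, 10.16, 10.11 and 10.57 in control replicates 1 to 4 and 9.88, 9.74, 9.83 and 9.86 in YAP shRNA replicates 1 to 4. All 4 knockdown arrays lay below all 4 control arrays, and control replicate 4 was the highest. The mean went from 10.29 ± 0.206 to 9.83 ± 0.0640 (SD, n = 4 and 4), a log2 difference of -0.46 (SE 0.096; limma adjusted p = 0.0117). Without control replicate 4 the difference was -0.37 (limma adjusted p = 0.00535). A dim second probe set gave -0.39 and another, dimmer still, -0.02, and neither was called when every probe set was tested. The call was lost when the 3 probe sets were averaged, at -0.29 (limma adjusted p = 0.0549), and when probe sets that can match several transcripts (IDs ending in _x_at or _s_at) were dropped, at -0.39 (limma adjusted p = 0.0555).

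CXCL5, the ligand first named for its secretion by epithelial cells, fell on each of its 3 probe sets. It read 12.66, 12.76, 12.64 and 12.84 in control arrays and 12.39, 12.44, 12.40 and 12.32 in YAP shRNA arrays, with no overlap. The log2 difference was -0.34 (SE 0.054; limma adjusted p = 0.00350), from 12.73 ± 0.0938 to 12.39 ± 0.0482 (SD, n = 4 and 4). The other probe sets differed by -0.50 and -0.46, and both were called when all 54675 probe sets were tested, where 10.2% were (limma adjusted p = 0.00204 and 0.00307). Those 2 read between 8.08 and 8.15 and between 11.02 and 11.07 in the control arrays, so that control replicate 4 did not stand out on them. CXCL5 was called under every alternative tried.

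CXCL8, or interleukin 8, fell on both of its probe sets. Both are of the kind that can match several transcripts, and CXCL8 was not measured once such probe sets were dropped. The brighter read 11.35, 11.39, 11.36 and 11.78 in control arrays and 11.02, 11.11, 11.12 and 11.08 in YAP shRNA arrays. Control replicate 4 stood well above the other control arrays, and the groups did not overlap with or without it. The log2 difference was -0.39 (SE 0.096; limma adjusted p = 0.0257), and -0.28 without control replicate 4 (limma adjusted p = 0.00225). With any YAP shRNA array left out the value lay between -0.40 and -0.37 and the adjusted p between 0.0561 and 0.0699, above the threshold. The dimmer probe set read 9.62, 9.85, 9.83 and 10.06 in control arrays and 8.64, 9.25, 9.30 and 9.20 in YAP shRNA arrays. Its difference of -0.74 was larger than that of the first, with a wider standard error of 0.155 (limma adjusted p = 0.0177 over every probe set).

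CXCL1, the melanoma growth-stimulating chemokine, was lower on every knockdown array but missed the threshold. It read 11.09, 11.01, 11.00 and 11.31 in control arrays and 10.85, 10.93, 10.82 and 10.84 in YAP shRNA arrays. The log2 difference was -0.24, with a 95% interval of -0.41 to -0.08 (limma adjusted p = 0.0512). Without control replicate 4 the difference was smaller, at -0.17, and it was called (limma adjusted p = 0.0275). Without control replicate 3 it was called as well, at -0.28 (limma adjusted p = 0.0495), and it was called under 6 of 17 alternatives in all.

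CXCL3, the third close relative, gave overlapping groups. It read 9.61, 9.56, 9.65 and 9.76 in control arrays and 9.45, 9.65, 9.51 and 9.60 in YAP shRNA arrays. Its difference of -0.09 had a 95% interval of -0.23 to 0.04 (limma adjusted p = 0.358), which holds no fall as large as the value of CXCL2. Without control replicate 4 the difference was -0.06, and without YAP shRNA replicate 1 it was also -0.06, again not called (limma adjusted p = 0.542 and 0.612). The interval for CXCL3 does not test the 2 genes against each other, and they were read by different probe sets. Since CXCL1, CXCL2 and CXCL3 are close copies, a part of their signal can be shared, and how far the 3 genes differ from each other was not tested.

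**Figure D2:**
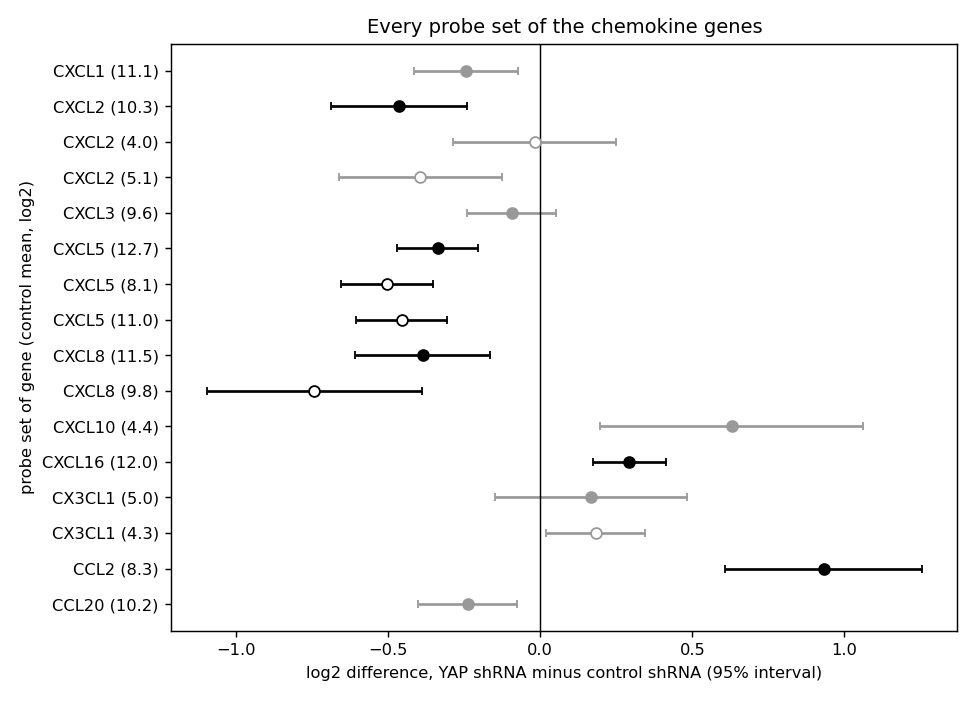
Log2 difference, YAP shRNA minus control shRNA, with its 95% interval (horizontal axis) for every probe set of the 10 genes, each labelled with its gene and control mean in log2. Filled points are the probe sets used for the gene, open points the others, and black marks those called when p was adjusted over all 54675 probe sets; all 3 CXCL5 and both CXCL8 probe sets are black and left of 0, while CCL20 and CXCL1 are grey there.

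Control replicate 4 was the highest control array for all 5 CXCR2 ligands and for 7 of the 10 genes, where it was highest for 40.2% of all genes. It exceeded the mean of the other 3 control arrays by 0.42 for CXCL8, 0.37 for CXCL2, 0.28 for CXCL1 and 0.15 for CXCL3 and for CXCL5. For CCL2 it lay 0.59 below them. The spread was larger in the control group than in the YAP shRNA group for 9 of the 10 genes, as for 67.1% of all genes. What set this array apart was not tested. Without it, 7 of the 10 genes were called, 3 upward and 4 downward, where 19.6% of all genes were.

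**Figure D3:**
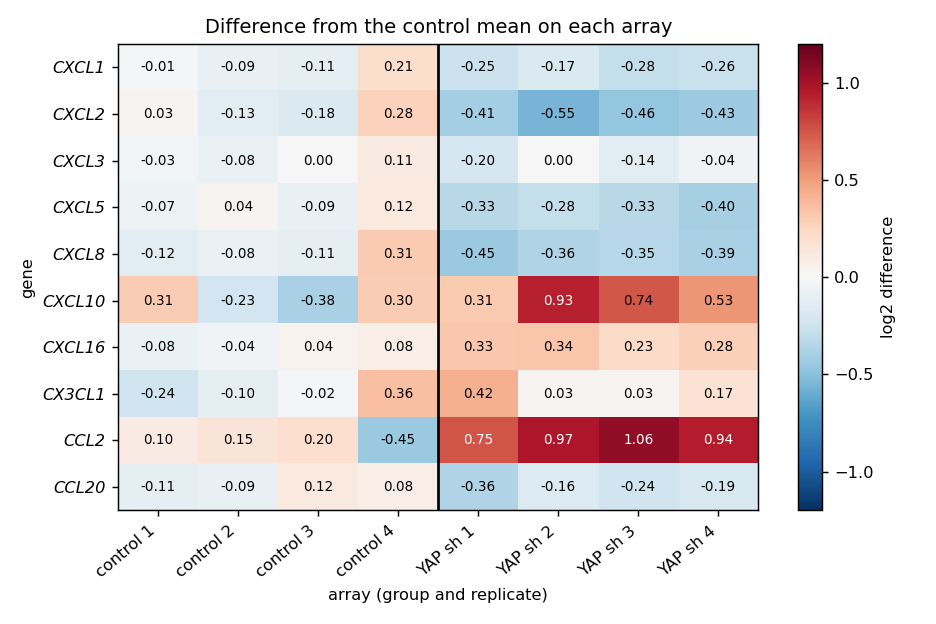
Difference of each array (columns, group and replicate) from the mean of the 4 control arrays, in log2, for the 10 chemokine genes (rows), red above and blue below. The 4 YAP shRNA columns are blue for CXCL1, CXCL2, CXCL5 and CXCL8 and red for CCL2, CXCL16 and CXCL10, and control 4 differs from the other control columns for CXCL8 and CCL2.

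CCL2, also known as MCP-1, rose most of the 10 genes. It read 8.38, 8.44, 8.48 and 7.84 in control arrays and 9.04, 9.25, 9.35 and 9.23 in YAP shRNA arrays. Every knockdown array was above every control array, and control replicate 4 was the lowest of all. The mean went from 8.29 ± 0.300 to 9.22 ± 0.129 (SD, n = 4 and 4), a log2 difference of 0.93 (SE 0.141; limma adjusted p = 0.00257). Without control replicate 4 the difference was 0.78 (limma adjusted p = 0.000438). In size of change CCL2 stood above 99.2% of all genes. It has 1 probe set with a single symbol, of a kind that can match several transcripts, so no other probe set bears on it.

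All samples were of the established HuCCT1 tumour line, and not of tissue that holds leukocytes. Markers of leukocytes are given here as transcripts read in that line. Of 8 measured leukocyte markers 3 rose and 1 fell, where 9.49% of all genes rose and 7.17% fell. Their mean level was 4.83 to 4.99 in control and 5.05 to 5.18 in YAP shRNA arrays. LYZ, the lysozyme gene, rose by 0.86 and CD14, the lipopolysaccharide coreceptor, by 0.46, while PTPRC, the pan-leukocyte marker CD45, fell by 0.22. Once probe sets whose ID ends in _x_at or _s_at were left out, LYZ missed the threshold at 0.49 (limma adjusted p = 0.0559) and PTPRC gave -0.04 (limma adjusted p = 0.785). PTPRC was called under 5 of 16 alternatives, and not without control replicate 2, 3 or 4 or YAP shRNA replicate 2, 3 or 4 (-0.23 to -0.18). PTPRC averaged 3.96 in control arrays, below the lower quartile of gene levels of 5.15, as did 4 of the 8 markers. Whether these changes bear on the CCL2 value was not tested. Of 8 fibroblast markers 1 rose, COL1A1 by 0.52, or 0.29 with its probe sets averaged. Of 7 hepatocyte markers 1 rose, SERPINA1 by 0.19, or 0.47 without _x_at and _s_at probe sets. Of 6 endothelial markers none rose or fell by limma (1 had an unadjusted p under 0.05).

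CCL20, also called MIP-3 alpha, fell by a small amount. It read 10.12, 10.14, 10.34 and 10.31 in control arrays and 9.86, 10.06, 9.99 and 10.03 in YAP shRNA arrays, without overlap. The log2 difference was -0.24 (SE 0.069; limma adjusted p = 0.0471). The call did not survive small changes: it was lost on leaving out control replicate 2, 3 or 4 or any YAP shRNA array, with adjusted p from 0.0547 to 0.112 and values from -0.27 to -0.20. It was also lost under median centring, at -0.24 (limma adjusted p = 0.0520), and when every probe set was tested (limma adjusted p = 0.0755), and it held under 6 of 17 alternatives.

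CXCL16, the ligand of CXCR6 that also serves as a scavenger receptor for oxidised lipoproteins, rose. It read 11.90, 11.93, 12.01 and 12.05 in control arrays and 12.30, 12.31, 12.20 and 12.26 in YAP shRNA arrays, with no overlap. The log2 difference was 0.29 (SE 0.048; limma adjusted p = 0.00387). The value stayed between 0.27 and 0.32 under every alternative tried, and it was called under each.

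CX3CL1, or fractalkine, the other membrane-bound ligand, was dim and its groups overlapped. It read 4.72, 4.85, 4.93 and 5.32 in control arrays and 5.38, 4.99, 4.99 and 5.13 in YAP shRNA arrays. Its difference of 0.17 had a 95% interval of -0.15 to 0.48 (limma adjusted p = 0.489). Single arrays moved it, to 0.29 without control replicate 4, 0.09 without control replicate 1 and 0.08 without YAP shRNA replicate 1, and it was called in none of these (limma adjusted p = 0.103, 0.753 and 0.769). A second probe set, dimmer still, gave 0.18 (limma adjusted p = 0.168 over every probe set). Both probe sets lay below the lower quartile of gene levels, where the arrays carry no detection call.

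CXCL10, the interferon-induced protein IP-10, was higher on the knockdown arrays without passing the test. It was dim, at 4.74, 4.21, 4.05 and 4.74 in control arrays and 4.75, 5.37, 5.18 and 4.96 in YAP shRNA arrays. The groups did not overlap, though YAP shRNA replicate 1 lay only just above the highest control array. The log2 difference was 0.63 with a 95% interval of 0.19 to 1.06 (limma adjusted p = 0.0573). It was called without control replicate 1, control replicate 4 or YAP shRNA replicate 1, at 0.73 each (limma adjusted p = 0.0479, 0.0396 and 0.0489). It was also called with an intensity trend in the spread model (limma adjusted p = 0.0203) and with array weights, at 0.81 (limma adjusted p = 0.0135). In all it was called under only 5 of 16 alternatives. It was not called without control replicate 3, at 0.50, or YAP shRNA replicate 2, at 0.53 (limma adjusted p = 0.121 and 0.140). Among the interferon-linked regulators, 5 of 15 rose and 1 fell, where 9.49% of all genes rose and 7.17% fell. The 250 bases before its start are shown with 2 motifs in capitals, first an interferon-response motif (TTCNNTTTC read on the other strand) and then the NF-kB letters, also on the other strand.

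CXCL10, chr4:76023498-76023747, minus strand: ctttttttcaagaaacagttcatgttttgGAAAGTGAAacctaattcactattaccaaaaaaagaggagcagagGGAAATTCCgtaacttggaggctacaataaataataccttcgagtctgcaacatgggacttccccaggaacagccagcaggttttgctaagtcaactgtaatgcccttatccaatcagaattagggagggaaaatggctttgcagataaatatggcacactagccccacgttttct

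The interferon-response motif was present in 6.88% of all promoters and in 3 of the 7 described genes in the table, which were CXCL10, CXCL2 and CXCL3.

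The chemokine genes of chromosome 4 fell into separate blocks. In the first block, 9 genes follow each other with no other protein-coding gene between them, in the order CXCL8, CXCL6, PF4V1, CXCL1, PF4, PPBP, CXCL5, CXCL3 and CXCL2. All 9 had a negative log2 difference, where 46.1% of all genes did. Of the 9, 4 fell, where 7.17% of all genes did. These were PPBP and the genes CXCL2, CXCL5 and CXCL8 already described. The 9 values are not independent of each other, since the block holds close copies. PF4V1 was also dim, at a mean of 3.99 in control arrays. The direction of CXCL6 was not fixed: it stood at -0.06, and at 0.04 without control replicate 4.

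PPBP, which encodes the platelet basic protein precursor of the CXCR2 ligand NAP-2, fell most in that block. Its mean was 9.19 ± 0.194 with the control shRNA and 7.85 ± 0.111 after knockdown (SD, n = 4 and 4), a 2.53-fold fall with a log2 difference of -1.34 (SE 0.099; limma adjusted p = 8.92e-05). It was called under every alternative that measured it, with values from -1.39 to -1.25. Its probe set is of the kind that can match several transcripts, so PPBP was not measured once such probe sets were dropped. PF4, the platelet factor, stood at -0.26 (limma adjusted p = 0.0650) and its close copy PF4V1 at -0.34 (limma adjusted p = 0.244), and neither passed. PF4 was called under 4 of 16 alternatives, among them without control replicate 1, at -0.31 (limma adjusted p = 0.0479). PF4V1 stood at -0.17 without YAP shRNA replicate 1. The median over the 793 genes of chromosome 4 was 0.01.

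In the second block, 15 protein-coding genes further on, CXCL10 lies with CXCL9 and CXCL11, which share its receptor CXCR3. CXCL11 stood at 0.41 with overlapping groups (limma adjusted p = 0.0828), and at 0.50 with array weights, where it was called (limma adjusted p = 0.0148), as it was without control replicate 4, at 0.52 (limma adjusted p = 0.0157). It was called under only 4 of 16 alternatives in all, with values from 0.31 to 0.52. CXCL9 stood at -0.10 (limma adjusted p = 0.698), and between -0.23 and -0.02 with an array left out, lowest without YAP shRNA replicate 1 and nearest 0 without YAP shRNA replicate 4. All 3 were dim, and none of them passed. CXCL13, farther along, stood at 0.04.

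**Figure D4:**
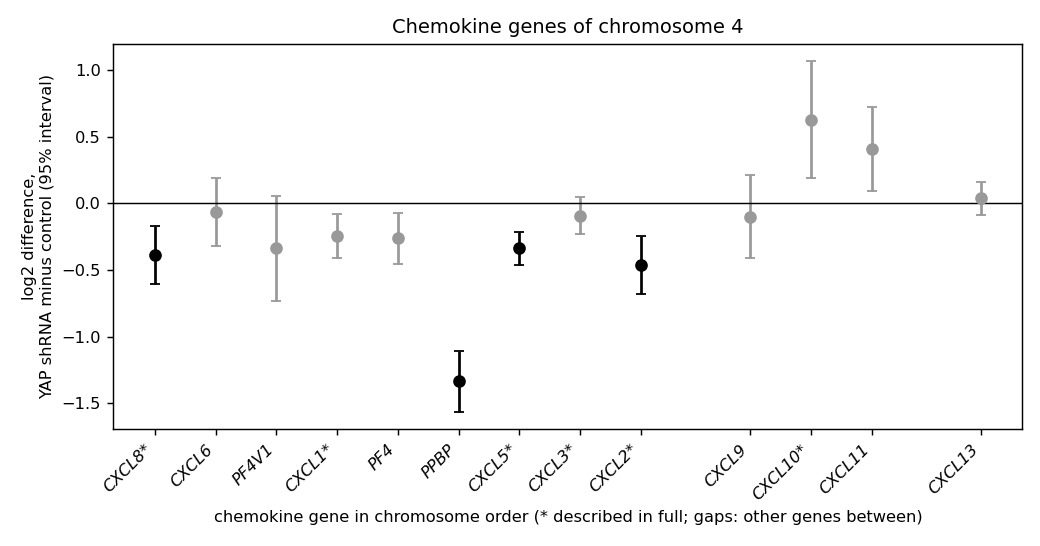
Log2 difference, YAP shRNA minus control shRNA, with its 95% interval (vertical axis) for the 13 chemokine genes of chromosome 4 in their order along the chromosome, black where called by limma and grey where not. All 9 genes of the first block lie below 0, PPBP lowest at -1.34, and CXCL10 and CXCL11 in the second block lie above 0.

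Of 29 other measured chemokine ligands, 1 rose and 2 fell, a smaller share than the 16.7% called over all genes. Their median log2 difference was 0.01. CCL28, a mucosal ligand of epithelial cells, rose by 0.59 (limma adjusted p = 0.00278), and it was called under every alternative. CCL26, or eotaxin-3, fell by 0.35 (limma adjusted p = 0.0438), and PPBP is described above. CCL26 was called under 9 of its 17 alternatives, and the call was lost on leaving out control replicate 2 or 4 or any YAP shRNA array (-0.37 to -0.28; limma adjusted p from 0.0750 to 0.117). Of these 29 genes, 16 lay below the lower quartile of gene levels.

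The receptors of the described ligands were dim and none passed the test. CXCR2 averaged 4.97 in control and 5.01 in YAP shRNA arrays, CX3CR1 4.38 and 4.36, CCR2 4.09 and 4.02, and CCR6 4.00 and 3.73. CXCR6 averaged 5.17 and 5.32. CXCR3 stood at 0.11 on its brightest probe set (limma adjusted p = 0.214), while its other probe set, used when the promiscuous ones were dropped, gave 0.64 and was called (limma adjusted p = 0.00558). Of 21 receptors measured, 0 rose and 1 fell by limma, where 16.7% of all genes were called, and 3 had an unadjusted p under 0.05. Of these 21, 10 lay below the lower quartile of gene levels and only 2 above the median. The gene that fell was ACKR3, a scavenging receptor of CXCL12 once named CXCR7, from 5.98 ± 0.194 to 5.16 ± 0.216 (SD, n = 4 and 4). Its log2 difference was -0.81 (limma adjusted p = 0.00285), or -0.35 when its probe sets were averaged.

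Of 86 genes in 5 lists of chemokine regulators and processing factors, 26 rose, 7 fell and 53 were not called, with a median of 0.09. In either direction 16.7% of all genes were called, and 26.6% of genes above the median level, where 70 of the 86 lay. Of 28 inducing cytokines and receptors 8 rose and 3 fell, with a median of 0.06. IL1B, a strong inducer of chemokines, rose by 1.04, and TLR3, the receptor for double-stranded RNA, by 0.54. IL6, the pleiotropic cytokine, fell by 1.60, and TLR4, the lipopolysaccharide receptor, by 1.33, or by 0.86 with probe sets of that kind dropped. TNF and IL1A rose by 0.48 and 0.54. From the same list, IL1RN, the interleukin 1 receptor antagonist, rose by 0.43 and IL18 fell by 0.41. All of these were picked after their values were seen.

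Of 20 NF-kB regulators 6 rose and 2 fell, with a median of 0.08, where 9.49% of all genes rose and 7.17% fell. All 20 lay above the median level, and of such genes 26.6% were called in either direction. NFKBIA, the inhibitor that NF-kB itself induces, rose by 0.35, and CEBPD, a C/EBP transcription factor, by 0.53. With those promiscuous probe sets dropped, CEBPD gave 0.08 (limma adjusted p = 0.747), and it stood at 0.31 when its probe sets were averaged. BIRC2, a ubiquitin ligase of the pathway, fell by 0.25, and NFKBIB by 0.19, or by 0.49 without those probe sets. The call on NFKBIB was lost without control replicate 1 or YAP shRNA replicate 2, 3 or 4 (-0.19 to -0.17; limma adjusted p from 0.0520 to 0.0640). Whether any of these genes bear on the chemokine values was not tested.

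Among 15 interferon-linked regulators the median was 0.14. STING1, an adaptor of DNA sensing, rose by 0.40, IFIH1, a sensor of double-stranded RNA, by 0.39, and JAK2, a receptor-bound kinase, fell by 0.24. The mean of its probe sets gave -0.19 for JAK2, which was then not called (limma adjusted p = 0.215). Of 12 regulators of AU-rich mRNAs, a class that includes many chemokine transcripts, 1 rose, where 9.49% of all genes did. Of genes above the median level, as 11 of the 12 were, 26.6% were called in either direction. The gene that rose was ZFP36L2, a decay factor, by 0.12. Its call held under 5 of 17 alternatives and, of the 8 arrays, was kept only when control replicate 4 was the one left out.

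The last of these lists holds proteases, several of which release or trim chemokines, and factors that process or support such enzymes. Of 11 measured, 6 rose and 1 fell, with a median of 0.26, where 9.49% of all genes rose and 7.17% fell. Of genes above the median level, as 9 of the 11 were, 26.6% were called in either direction. MMP9, a gelatinase that can trim CXCL8, rose by 1.41, and MMP7, an epithelial matrilysin, by 1.25. CTSC, the cathepsin that activates granule proteases, fell by 0.49. ADAM10 and ADAM17, the main sheddases of CXCL16 and CX3CL1, stood at -0.05 and -0.03 (limma adjusted p = 0.561 and 0.695), and DPP4, which trims CXCL10, rose by 0.79. These 3 were picked for their known role.

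**Figure D5:**
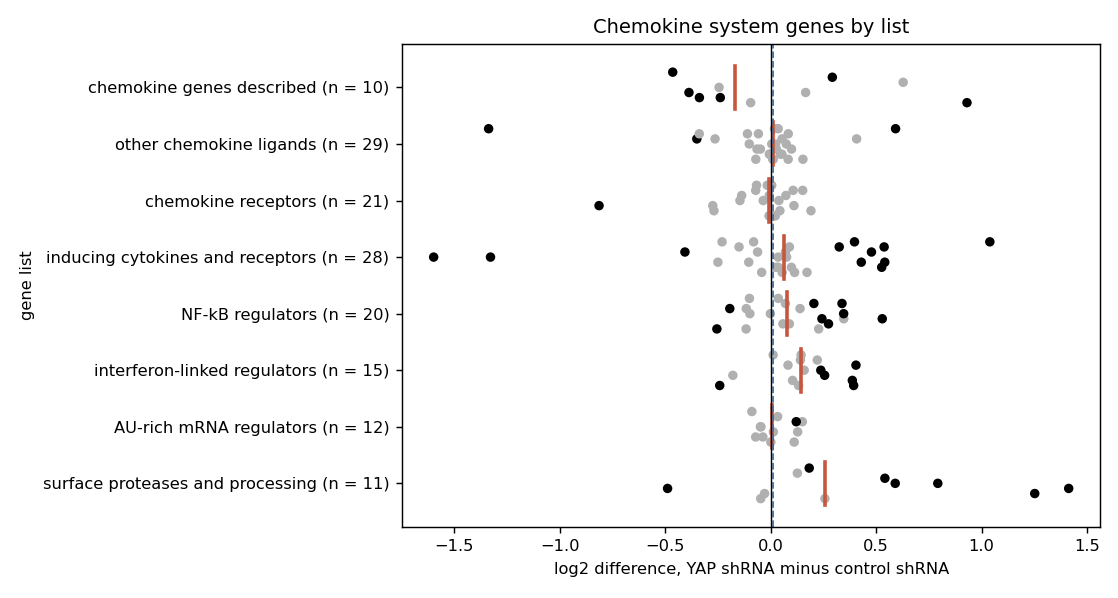
Log2 difference, YAP shRNA minus control shRNA (horizontal axis), of each measured gene in 8 lists (rows, with the number measured), black where called by limma and grey where not, with the list median as a red bar and the median of all genes as a dashed line. The 10 chemokine genes have the lowest median, -0.17, and the surface proteases and processing genes the highest, 0.26.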

How the data were processed

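The deposited table holds log2 values, 1 per probe set and array, for 8 Affymetrix arrays; no log base is stated, and base 2 was taken since they run from 1.72 to 14.9. How the authors corrected background and normalized is not given in the sources used. RNA was purified on columns and its amplified cDNA labelled with biotin, per the labels. Array medians lay between 6.22 and 6.25, so no normalization was added, and no filter was set on dim genes. Of 54675 probe sets, 41097 have 1 symbol in GEO's platform annotation, which can be old, and each of 19775 genes was represented by its brightest. The fit was limma 3.58.1 in R 4.3.3, YAP shRNA minus control shRNA, with Benjamini-Hochberg adjustment over all genes. For single genes 4 arrays against 4 allow a two-sided exact permutation p of no less than 0.0286, which every gene without overlap reaches. Precision is limited by the number of arrays, and no 2 arrays were identical. The fit was tested on simulated data in which 200 of 19775 genes changed, fewer than were called here. It called 25.4%, 64.3% and 95.2% of the genes given a log2 change of 0.25, 0.5 and 1.

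The genes and lists were chosen with earlier results of these data known. Named beyond the 10 are up to 2 risen and 2 fallen genes per list by size, the 6 receptors, YAP1 and neighbouring chemokine genes. Promoters came from RefSeq (GRCh38.p14), also used for names and gene order, and were aligned with Biopython 1.88. Alternatives were quantile normalization, median centring, other probe set choices, a filter on dim genes, other spread models, array weights, a block for replicate number and omission of each array; testing every probe set was added after seeing the data. The replicate numbers were not treated as pairs, since same-numbered arrays did not deviate together.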

Additional observations from a re-analysis of the deposited data

Results flagged for a closer look

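Of 98 groups of 4 arrays, those of 49 genes named in the text, 1 array lay far from the rest in 8; about 1 group in 20 does so by chance. In control shRNA replicate 4, CXCL8 was high at 11.78 (11.35 to 11.39 in the other control arrays) and CXCL6 high at 7.30 (6.85 to 6.93). In the same array CCL2 was low at 7.84 (8.38 to 8.48) and CTSC low at 13.81 (14.05 to 14.09). YAP1 was high at 12.77 in control shRNA replicate 3 (12.59 to 12.61). CCL28 was low at 8.86 in YAP shRNA replicate 1 (9.02 to 9.05), CXCL6 high at 7.13 in YAP shRNA replicate 2 (6.83 to 6.87) and CCL26 low at 5.83 in YAP shRNA replicate 4 (5.95 to 5.98).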

How the results depend on the processing

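No chemokine gene of the 10 changed direction under any alternative. The number called, 6, was 2 without probe sets whose ID ends in _x_at or _s_at, where 8 genes were measured, 7 of 8 above the lower quartile of level, 8 with an intensity trend, 8 with array weights, and 4 to 7 with an array left out. The calls over all genes moved as well, from 3294 of 19775 in the main fit. In the same order up to array weights, they were 2433 of 17100, 3846 of 14831, 4257 of 19775 and 4062 of 19775. Other ligands called numbered 5 with an intensity trend and 5 with array weights (2 to 4 with an array left out). Receptors called numbered 2 with the mean of probe sets and 2 without those of that kind. Among upstream regulators, 26 to 38 were called with an array left out, against 33, and over all genes 2381 to 3881. With the replicate block 2106 genes were called, 4 of the 10 chemokine genes among them; CXCL8 and CCL20 then missed the threshold (limma adjusted p = 0.0564 and 0.0684), as did CCL26, BIRC2, NFKBIB, STING1, JAK2, ZFP36L2, KRT19, PTPRC and SERPINA1 (0.0506 to 0.143). The block spends degrees of freedom, and same-numbered arrays correlated at -0.21 to 0.00, with no control array correlating best with its own number. Uncalled genes near 0 turned sign: CXCL6 stood at 0.033 with array weights, and with an array left out it ranged from -0.14 to 0.040, CXCR2 from -0.022 to 0.091, CX3CR1 from -0.089 to 0.022 and CXCL13 from -0.0023 to 0.060. Causes were not tested. Dim genes such as CXCL10 and CX3CL1 carry no detection call.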
